A study of Mus musculus with 3 samples.

Results

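The net change over a whole course of osteoclast formation was measured on 2 mouse arrays, 1 from a macrophage precursor culture before RANKL (0 h) and 1 from a culture kept for 72 h with RANKL, out of 3 arrays in all. The third array, at 24 h, gives side by side levels, and it also entered the common scale, the floor and the choice of each gene's probe set. Marrow cells of C57/BL6 mice had been cultured in human M-CSF (hM-CSF, 50 ng/ml) over 3 days, which turns them into macrophages, and human RANKL (hRANKL, 150 ng/ml) was then added for 0, 24 or 72 h. The labels call the 0 h cells precursors and the 72 h cells osteoclasts. They give 1 array per time, no number of animals, no sort of the cells and no 72 h culture lacking RANKL, so what RANKL did cannot be told apart from what 72 h of further culture did. Whether M-CSF was kept during the RANKL period is not given in the sources used here. All genes named by a single symbol entered the comparison, 12393 of them, and 8558 had a signal above the detection floor on at least 1 of the 2 arrays.

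Osteoclasts are the multinucleated cells that dissolve bone. They form by fusion of macrophage precursors under M-CSF, which keeps the precursors alive, and RANKL, which binds the receptor RANK and induces the transcription factor NFATc1. The mature cell seals off a patch of bone with a ring of actin, pumps acid into it through the vacuolar ATPase and secretes proteases, chiefly cathepsin K, and it spends much ATP from a dense population of mitochondria on doing so. Macrophages, in turn, are known for phagocytosis, sensing of microbes and antigen presentation.

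Signals are given on the mean scale of the 3 arrays after each array was centred on its own median, because the median deposited signal was 1.71 times as high at 72 h as at 0 h (a log2 shift of 0.77). All differences are relative to that shift. A signal under 29.6, the 40th percentile of all values, was set to that floor for the comparison, so a fold that starts or ends there is a lower bound, written "at least". A gene is said to have risen or fallen when it differed at least 2-fold. With 1 array a side no value has a replicate check or a p-value, and precision is limited by the number of arrays. The only error at hand is technical: probe sets of the same gene gave log2 differences with an SD of 0.49 (2702 genes), a factor of 1.41, which leaves out the variation between cultures. It was 0.52 in the dimmer and 0.46 in the brighter of those genes.

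Between 0 h and 72 h, 1068 genes rose and 1095 fell, 12.5% and 12.8% of the genes measured, and 6395 stayed within 2-fold. A gene list with shares near these does not stand apart from all genes. The median log2 difference over all measured genes was -0.01, and the quartiles lay at -0.53 and 0.52. Differences of at least 4-fold were found in 244 genes upward and 331 downward, of at least 8-fold in 77 and 97, and of at least 16-fold in 26 and 23. Of the genes that rose, 161 started at the floor, and of those that fell, 190 ended at it. The share of higher calls, 49.4%, was 86.8% on the deposited scale. There, more members rose in 53 of 66 gene lists. Of the 35 lists with more lower than higher members, 16 had more higher ones on that scale, and those counts stand beside each of them. Many lists with equal counts or more higher members also gained higher ones there, and these counts are given only in part. Among the 355 genes that rose and had another probe set above the floor on both arrays, every other probe set also rose in 202 and none fell 2-fold in any. Among 287 such genes that fell, the others also fell in 123, and in 1 gene another rose 2-fold.

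**Figure D1:**
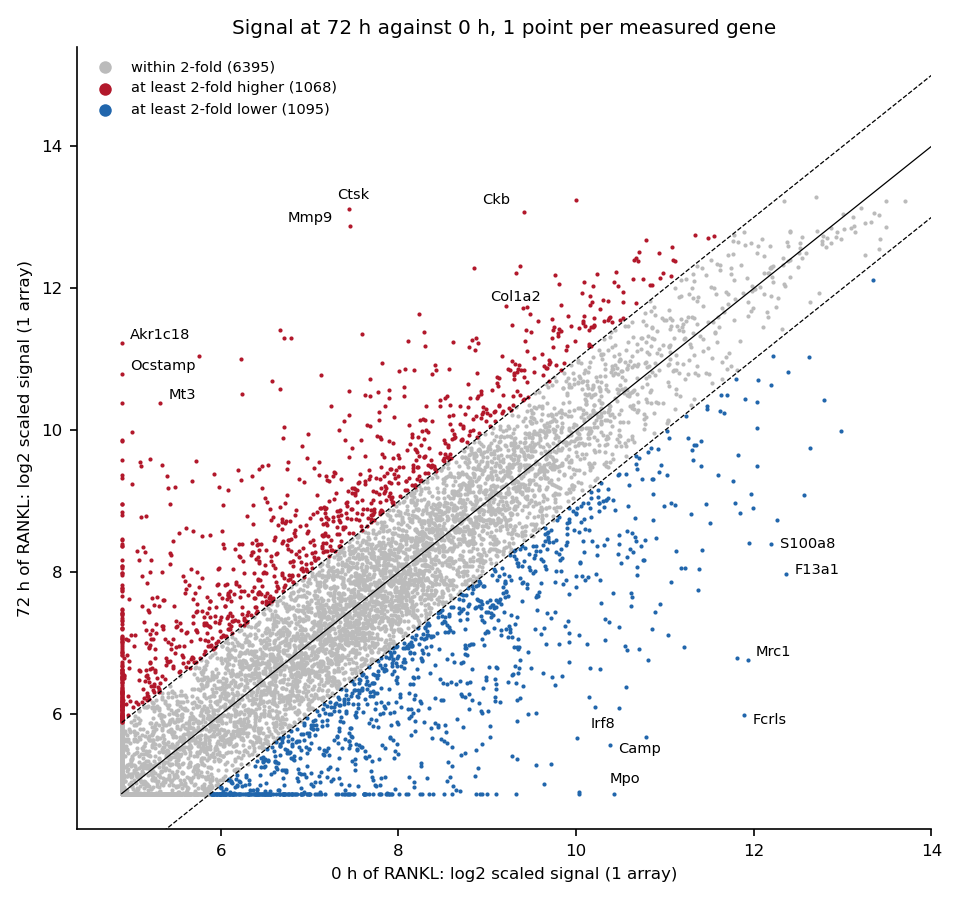
Log2 scaled signal at 72 h of RANKL (vertical) against 0 h (horizontal), 1 point per gene measured on at least 1 of the 2 arrays, 1 array per axis. Dashed lines mark 2-fold; the 1068 red points rose, the 1095 blue points fell, and points along the lower and left edges sit at the floor.

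Of the genes with both arrays above the floor, the largest rises were those of 2 bone-degrading proteases, followed by enzymes, transporters and surface proteins of diverse function. Ctsk went from a signal of 175 at 0 h through 910.0 at 24 h to 8856 at 72 h, 50.7-fold above 0 h, and encodes cathepsin K. Mmp9 went from a signal of 175 at 0 h through 665 at 24 h to 7535 at 72 h, 43.0-fold, and encodes the gelatinase MMP9. Both were already higher at 24 h, and the larger part of the rise came after it. Cyp2s1, a cytochrome P450, was measured at 54.1, 860.3 and 2116 and Sdc1, the heparan sulfate proteoglycan syndecan 1, at 111, 1519.6 and 2516, so these had risen strongly by 24 h. Mt3, a metallothionein best known from brain, stood at 39.8, 31.2 and 1338, level at 24 h and 33.6-fold higher at 72 h. The related Mt1 and Mt2, which bind zinc and copper in most cells, stayed within 2-fold (1754, 2390.2 and 1973 for Mt1 and 300.1, 644 and 359 for Mt2). Klra17, of the Ly49 receptor family, had the same late course with 34.4, 29.0 and 725 (21.1-fold). The membrane-anchored Cd109 (31.5-fold), Bdh1 of ketone metabolism (27.2-fold), the myosin Myo1d (26.9-fold), the sodium/proton exchanger Slc9b2 (24.0-fold), the actin-severing Scin (22.2-fold), the matrix protein Fbln2 (19.0-fold) and Spns2, an exporter of sphingosine 1-phosphate (log2 difference 4.17), completed the 15 largest rises of this kind together with Itgb3 and Car2, described with resorption below.

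**Figure D2:**
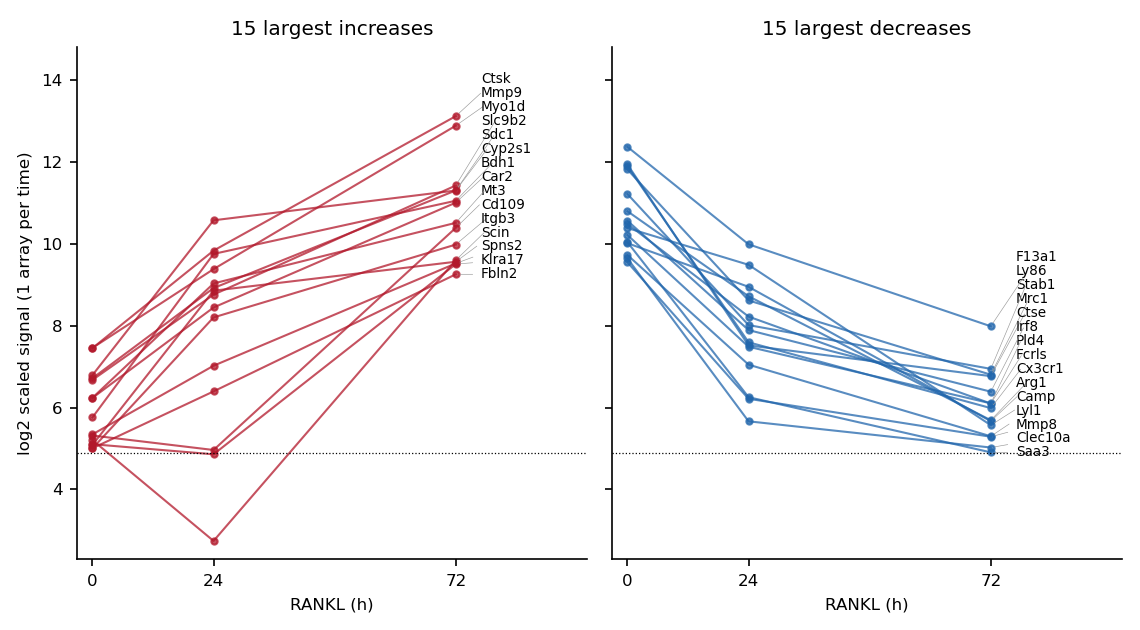
Log2 scaled signal of the 15 genes with the largest rises (left) and the 15 with the largest falls (right) among genes above the floor (dotted line) at both 0 h and 72 h, at 0, 24 and 72 h of RANKL, 1 array per time. Mt3, Klra17 and Itgb3 were no higher at 24 h than at 0 h, and the genes that fell had lower signals at 24 h already.

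Genes under the floor at 0 h have bounds only, and some of these exceed the rises above. They were headed by Akr1c18, an aldo-keto reductase that inactivates progesterone, with signals of 6.43, 103 and 2403 (at least 81.3-fold higher). Ocstamp, without which osteoclast precursors do not fuse, was at 24.8, 318 and 1774, a log2 difference of at least 5.91. Oscar, an immunoglobulin-like co-receptor of osteoclasts, went from 27.8 through 50.8 to 1335, and the calcineurin inhibitor Rcan2 from 1.45 through 42.4 to 937. The secreted integrin ligand Edil3 was at least 31.3-fold higher and the metalloreductase Steap4 at least 22.4-fold. The granzymes Gzmd and Gzme, serine proteases otherwise known from killer lymphocytes, went from 7.93 through 12.5 to 765 and from 24.0 through 19.8 to 645. The only probe set of Gzme is of the kind shared between transcripts, and the part of Gzmd RNA in its signal was not tested. With the floor applied, no other granzyme on the array passed 2-fold. Gzma and Gzmc had signals of 34.6, 11.6 and 16.5 and 2.07, 10.6 and 37.4. Gzma ended and Gzmc started at the floor, so their log2 differences of -0.23 and 0.34 are bounds. Whether either changed by more was not tested. Gzmb, Gzmf, Gzmg, Gzmk, Gzmm and Gzmn were under the floor at both 0 h and 72 h. Of 14 T and NK cell markers on the array, 4 were above the floor at 0 h and 2 at 72 h. The T cell receptor chain genes Cd3d and Cd3e were under it on both. Among the 5 markers measured, 1 rose, with a log2 difference of 2.17, and 2 fell. The part of lymphocytes in the granzyme values was not tested.

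Of the genes with both arrays above the floor, several of the largest falls were those of macrophage surface receptors. Fcrls went from a signal of 3796 at 0 h through 193 at 24 h to 63.4 at 72 h, 59.9-fold lower, and encodes an Fc receptor-like protein. Mrc1, the mannose receptor, fell from 3911 through 183 to 109 (35.9-fold) and Stab1, a scavenger receptor, from 3591 through 392 to 111 (32.2-fold). These levels had dropped more than 8-fold by 24 h. Cx3cr1, the fractalkine receptor, fell more evenly, with 1772, 420.3 and 51.6. Camp, a granule peptide of neutrophils, was at 1334, 716 and 47.5, and Arg1, the arginine-degrading enzyme of alternatively activated macrophages, at 1032, 493 and 50.8, so their decline came mainly after 24 h. F13a1, coagulation factor XIII A, fell from 5267 through 1013 to 253 (20.8-fold). Saa3, of the acute phase response (35.0-fold), the lectin Clec10a (24.5-fold), the haematopoietic factor Lyl1 (21.5-fold), the endosomal nuclease Pld4 (20.9-fold), the TLR-associated Ly86 (19.3-fold), the collagenase Mmp8 (19.1-fold), the aspartic protease Ctse (18.1-fold) and the transcription factor Irf8 (17.3-fold) completed the list. Ctse had at least 1 other probe set that stayed within 2-fold.

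Among genes that ended at the floor, whose falls are bounds, the neutrophil granule enzyme Mpo went from 1380.0 through 532 to 27.3 (at least 46.7-fold lower) and Prtn3, proteinase 3, from 639 through 239 to 18.9. Ikbke, a kinase that activates interferon regulatory factors, went from 1051 through 34.5 to 12.1, almost wholly within the first 24 h. Hp, haptoglobin, was at least 16.6-fold lower, the carbonyl reductase Cbr2 at least 17.3-fold, the sorting receptor Sorl1 at least 18.6-fold, the kinase Camk1d at least 15.9-fold, and Tnfrsf13b, the receptor TACI of B lineage cells, at least 16.4-fold. The B cell genes themselves were hardly present: 4 of 11 markers were above the floor at 0 h and 2 at 72 h. Sorl1 had at least 1 other probe set that stayed within 2-fold.

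The labels were checked against the markers of each cell type. Macrophage markers were present at 0 h, with 24 of 24 genes on the array above the floor, and 16 of 24 fell by 72 h (median -2.51), among them Adgre1, the classical macrophage antigen (from 2908 through 561 to 413), and the apoptotic cell receptor Mertk (from 659 through 139.6 to 75.2). Csf1r, the M-CSF receptor, was within 2-fold (7485, 5786 and 6383), as were the lysozymes Lyz1 (13298, 11676 and 9583) and Lyz2 (10966, 8632 and 6629), and Cd68, a lysosomal membrane protein, rose 2.34-fold (2868, 2438 and 6699). The osteoclast markers Acp5, Ctsk, Mmp9, Calcr, Car2, Itgb3, Ocstamp, Oscar and Nfatc1 all rose. In a bulk culture, fewer cells of a type and less RNA per cell cannot be told apart.

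Markers of 3 other cell types moved as well. Neutrophil and granulocyte precursor genes fell in 14 of 14 measured (median -3.53), and the summed signal of the 15 on the array went from 22402 at 0 h through 14964 at 24 h to 1744 at 72 h. S100a8, a calcium-binding protein abundant in neutrophils, stood at 4696, 3618 and 339 and the granule protein Ngp at 3953, 2789.9 and 341, so the loss came late. Megakaryocyte and platelet genes fell in 10 of 10 (median -2.63; sum 9940.3, 2001 and 988), mainly by 24 h, as with the platelet chemokine Pf4 (6085, 997 and 548). Stromal and osteoblast genes rose in 10 of 17 and fell in 1 (median 1.84; sum 5726, 6568 and 21349). The type I collagen chains Col1a1 and Col1a2 went from 205 through 380.3 to 1433 and from 913 through 989 to 3469, and periostin (Postn) from 169 through 372 to 930.2. The osteoblast gene Ibsp and the fibroblast marker Thy1 were under the floor on both arrays. Sp7 was within 2-fold at a 72 h signal of 47.1. Alpl and Pdgfra started at the floor and had 72 h signals of 48.4 and 35.3. Their log2 differences of 0.71 and 0.25 are therefore lower bounds, and whether they rose by more was not tested. Dcn, the proteoglycan decorin, was the member that fell (127, 69.7 and 45.7). Erythroid, endothelial, mast cell, dendritic and adipocyte lists had at most 5 measured members each. The part of these cells in the results below was not tested. Col1a1 had at least 1 other probe set that stayed within 2-fold.

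**Figure D3:**
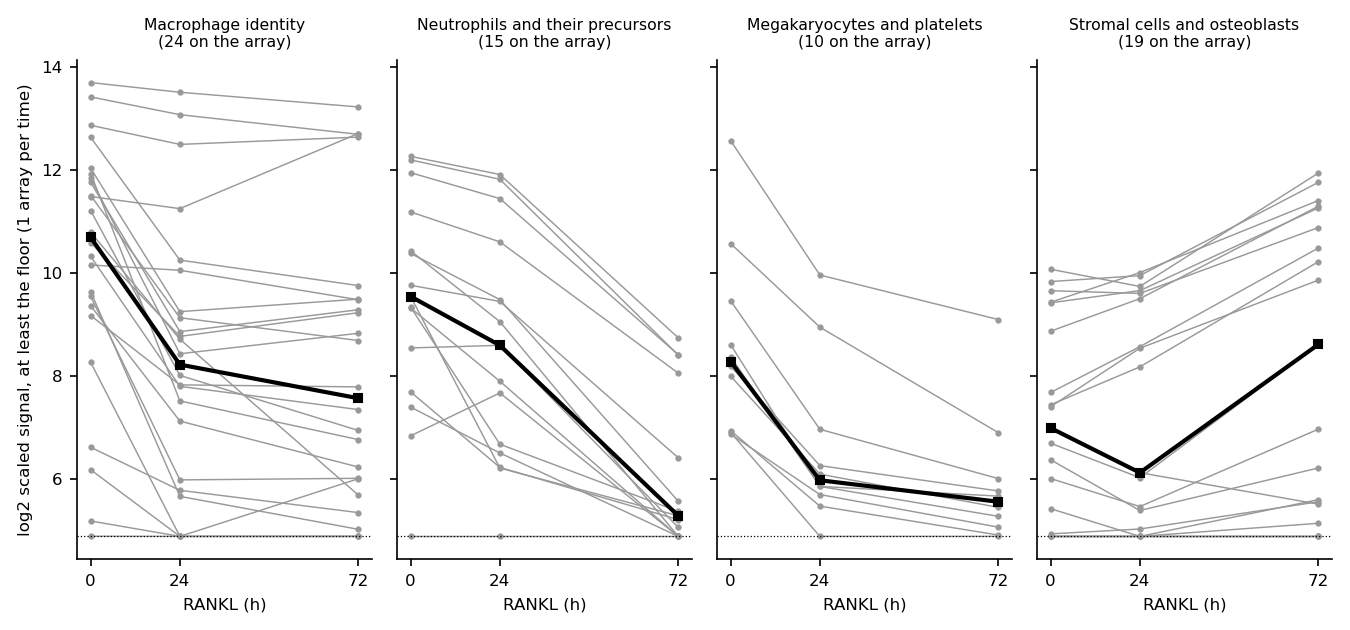
Log2 scaled signal of marker genes of 4 cell types at 0, 24 and 72 h of RANKL, 1 array per time; grey lines are genes, black squares the median, the dotted line the floor. Neutrophil and platelet markers fell, with summed signals at 72 h of 1744 and 988, while 10 of 17 measured stromal markers rose.

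Genes for dissolving bone rose almost as a whole, 13 of 14 measured members with none lower (median 3.07, against -0.01 over all measured genes). Besides the proteases, several members serve acid transport to the bone surface. Car2, the carbonic anhydrase that makes protons, went from 75.4 through 522 to 1457 (19.3-fold). Clcn7, the chloride channel that balances the proton current, went from 161 through 158 to 1031 (6.42-fold), and Slc4a2, the bicarbonate exchanger of the opposite membrane, from 342 through 717 to 1945 (5.69-fold). Snx10, a sorting nexin whose loss causes osteopetrosis, was 7.44-fold higher (643, 1279 and 4781), and Acp5, the tartrate-resistant phosphatase, 9.48-fold (1023, 4417 and 9699). Calcr, the calcitonin receptor, was at 22.8, 7.84 and 463, above the floor only at 72 h. The pump itself rose in 11 of 17 V-ATPase genes and fell in 2 (median 1.54). Atp6v1d and Atp6v1h of the cytosolic sector went from 697 through 1161 to 3409.8 and from 465 through 602 to 2243, and the osteoclast isoform of the membrane subunit a, Tcirg1, from 1262 through 1404 to 3663. The alternative subunits Atp6v0a1 (390.1, 47.0 and 4.71) and Atp6v0e2 (104, 110.3 and 23.8) were those that fell, whereas Atp6v0e rose (1205, 2499 and 4705) and Atp6v0a2 stayed level (141, 133 and 125). The e subunit isoforms thus moved in opposite directions. Clcn7 and Atp6v0a1 had at least 1 other probe set that stayed within 2-fold.

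Cathepsin K stood apart in direction from several other lysosomal proteases. In the list of cathepsins and other lysosomal proteases Ctsk was the 1 of 15 that rose and 5 fell (5 higher and 2 lower on the deposited scale). Ctss, a cathepsin of antigen-presenting cells, fell from 6327 through 3136 to 2107 (3.00-fold), Ctsh from 1745 through 727 to 289.9 (6.02-fold), Lgmn, the legumain, from 2712 through 1033 to 922, and Ctsc, which activates granule proteases, from 5338 through 4044 to 1817. Among metalloproteinases and their inhibitors 4 of 20 rose and 4 fell (9 higher and 2 lower on the deposited scale). The inhibitor Timp1 went from 758 through 1232 to 2995 (3.95-fold) and the gelatinase Mmp2 from 61.7 through 72.2 to 182 (2.96-fold), in the same array as the stromal genes above. The sheddases Adam15 (871, 484 and 233) and Adam17 (859, 669 and 344) fell. Lysosomal hydrolases and membrane proteins rose in 3 of 30 and fell in 7 (11 higher and 4 lower on the deposited scale): Smpd1, acid sphingomyelinase, went from 230.0 through 256 to 1294 and Glb1, beta-galactosidase, from 285 through 195 to 989, against Lamp1 (7078, 2868 and 1374) and Scarb2 (1203, 743 and 303), major lysosomal membrane proteins, which fell 5.15-fold and 3.97-fold. Adam15 and Adam17 had at least 1 other probe set that stayed within 2-fold.

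**Figure D4:**
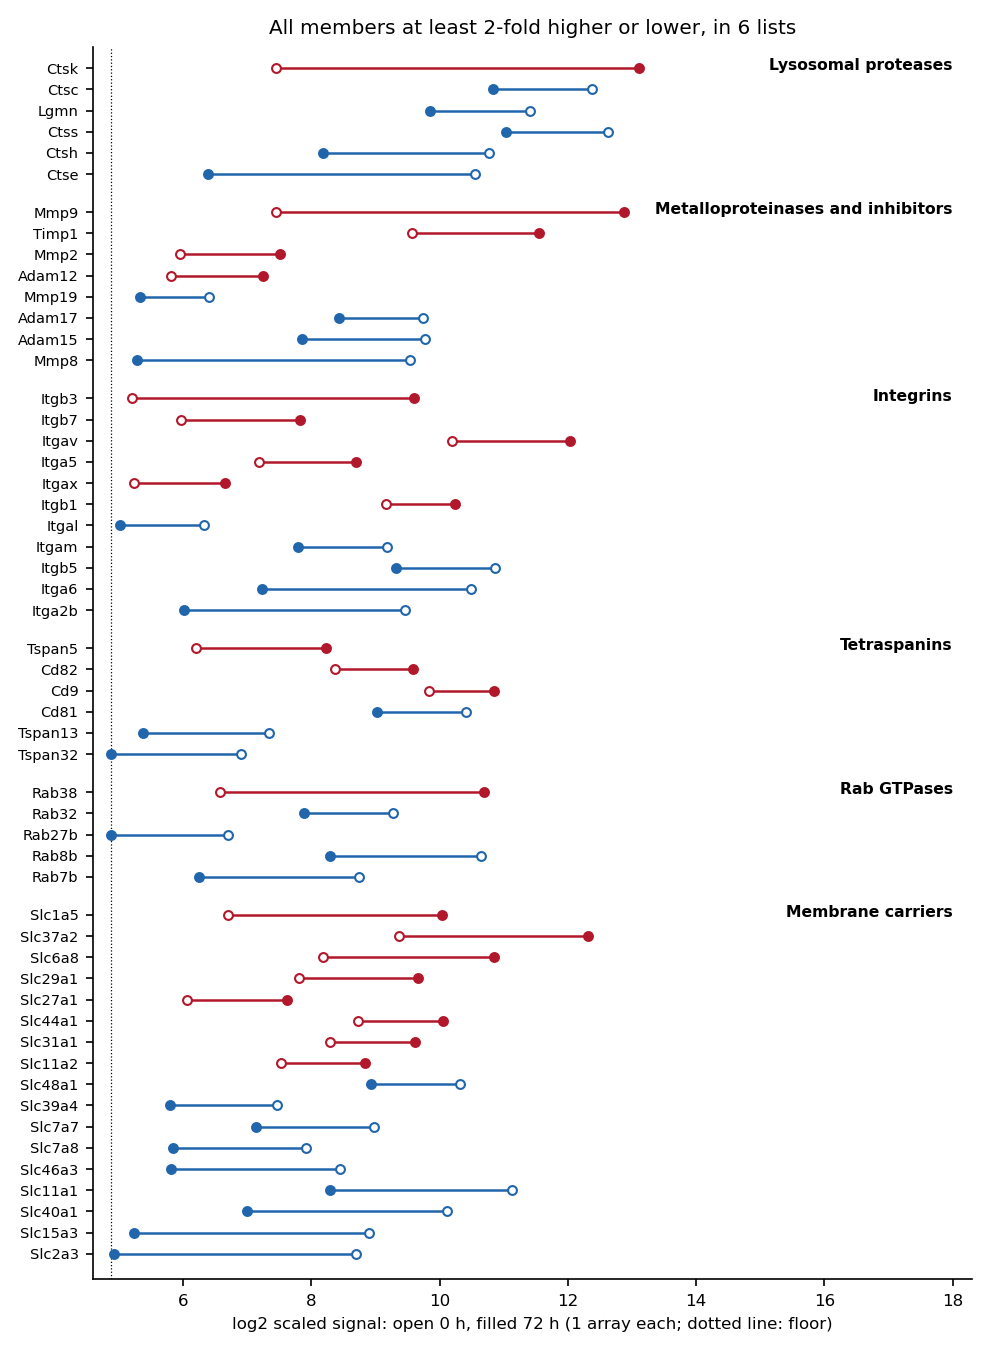
Log2 scaled signal at 0 h (open) and 72 h (filled) of every member at least 2-fold higher (red) or lower (blue) in 6 gene lists, 1 array per time, dotted line at the floor. Each list except that of Rab GTPases and lysosomal proteases holds at least 3 genes of both kinds; in those, Rab38 and Ctsk were the members that rose.

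Attachment genes exchanged members. Of 15 integrin genes 6 rose and 5 fell. Itgb3, the beta chain of the vitronectin receptor, went from 36.9 through 6.70 to 774 (21.0-fold), and its partner Itgav from 1174 through 3633 to 4197 (3.58-fold). The fibronectin receptor chains Itga5 (146, 484 and 414) and Itgb1 (575, 880.2 and 1212) and the leukocyte chain Itgb7 (62.7, 131 and 228) also rose. Itgb5, another beta partner of alpha v, fell from 1860.5 through 1081 to 639.8 (2.91-fold), the laminin receptor chain Itga6 from 1433 through 490.4 to 150.5 (9.52-fold), and the leukocyte chains Itgam (578, 227 and 221) and Itgal (80.1, 45.3 and 32.5) fell as well. The platelet chain Itga2b (704, 125 and 64.4) fell alongside the platelet genes. Tetraspanins, which organise membrane patches, rose in 3 of 18 and fell in 3 (16.7% each way, against 12.5% and 12.8% of all measured genes). On the deposited scale 10 of them were higher and 2 lower. Tspan5 went from 73.6 through 177 to 302, Cd82 from 330.3 through 364 to 765 (level when its probe sets were averaged) and Cd9 from 912 through 2041 to 1849.7. Cd81 (1369.5, 484 and 521) and Tspan13 (161, 16.1 and 41.7) fell. In the cell fusion list 8 of 20 rose and 5 fell. After Ocstamp, the largest rise there was that of Mst1r, a receptor tyrosine kinase (5.58, 67.5 and 500.2, at least 16.9-fold). The immunoglobulin-like Cd200 went from 51.3 through 118 to 627 while its receptor Cd200r1 went from 266 through 76.4 to 107, so ligand and receptor moved in opposite directions. Itgb1, Tspan5, Cd82 and Tspan13 had at least 1 other probe set that stayed within 2-fold.

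Podosome and actin genes rose in 12 of 44 and fell in 6, with a median of 0.01 (-0.11 with trimmed mean scaling and -0.01 after quantile normalization). Cttn, cortactin of the actin ring, rose 5.88-fold from 238 at 0 h and 317 at 24 h, Capg, an actin capper, from 959 through 2136 to 3144, and the kinase Src from 64.6 through 281 to 383. Several of those that rose are smooth muscle type genes: Tagln (140.3, 244 and 1764), Acta2 (1077, 855 and 3933), Cnn3 (245, 238 and 905) and Tpm1 (198, 808 and 1443). The collagen genes of the stromal list rose in the same array, and the part of stromal cells in these values was not tested. Coro1a, the coronin of leukocytes, fell from 2643 through 1348 to 216 (12.3-fold), and the membrane-bound Marcks and Marcksl1 fell 4.38-fold and 10.9-fold (1869.8, 384 and 427 and 1895, 227 and 175). Among 18 myosins 5 rose, led by Myo1d (102, 432 and 2739), and 4 fell, led by Myo7a (328, 278 and 96.4). On the deposited scale 9 myosins were higher and 0 lower. Myl9, a light chain of smooth muscle, rose from 65.1 through 73.8 to 495. Cnn3, Tpm1 and Marcks had at least 1 other probe set that stayed within 2-fold.

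Relative to the median of all genes, few trafficking genes passed 2-fold, and a single Rab GTPase did so upward. Rab38, a GTPase of lysosome-related organelles, went from 95.8 through 108 to 1652 (17.3-fold), nearly all of it after 24 h, while its close relative Rab32 fell from 617 through 283 to 238 (2.60-fold). Altogether 1 of 37 Rab genes rose and 4 fell (14 higher and 3 lower on the deposited scale), the largest fall being that of Rab7b (429.6, 133 and 76.0, 5.65-fold), whereas Rab7, the general late endosome GTPase, was within 2-fold (2340.2, 1933 and 2815). Of 50 SNAREs, synaptotagmins and sorting proteins 4 rose and 4 fell (15 higher and 1 lower on the deposited scale), and Syt7, a synaptotagmin with a known part in osteoclast secretion, was at 37.6, 20.3 and 31.5. Besides Snx10, the SNAREs Ykt6 (478, 1248 and 1436) and Vti1b (1328, 2141 and 3068) rose. In both lists the share that rose was below the 12.5% of all genes in the same setting.

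Transcription factors of the myeloid lineage and of the interferon response fell. With the arrays centred on their medians, none in these lists rose. Of 27 myeloid lineage factors 13 fell and 0 rose (2 higher and 9 lower on the deposited scale) (median -0.93). The granulocyte and macrophage factor Cebpa went from 1578 through 485 to 184 (8.58-fold), Cebpb from 1427 through 452 to 337, Cebpd from 741 through 159.7 to 148, the ETS factor Fli1 from 278 through 74.3 to 34.7 and the progenitor factor Myb from 257 through 50.7 to 1.47. The LIM factor Lmo2 fell 5.39-fold and its partners Lyl1 and Tal1 21.5-fold and 3.27-fold. Spi1, which encodes PU.1, stayed at the edge of the rule with 865, 1497 and 1717, a log2 difference of 0.99. The neutrophil and platelet markers given above fell between the same arrays, and their part in these values was not tested. Interferon regulatory factors and STATs fell in 8 of 13 with none higher (0 higher and 3 lower on the deposited scale) (median -1.21). Irf8, a repressor of osteoclast formation, went from 1184 through 179 to 68.7, Irf5 from 459.6 through 327 to 127 and Irf1 from 808 through 243 to 265. The Kruppel-like factors fell in 3 of 12, with Klf2 at 384, 36.5 and 34.8. Nuclear receptors rose in 1 and fell in 4 of 16 (5 higher and 2 lower on the deposited scale). Vdr, the vitamin D receptor, rose by 1.06 on the log2 scale (under 2-fold with trimmed mean scaling). Its partner Rxra fell from 437 through 107 to 115, in the opposite direction. Cebpd, Myb, Vdr and Rxra had at least 1 other probe set that stayed within 2-fold.

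Of 37 factors known from osteoclast formation 8 rose and 9 fell (17 higher and 5 lower on the deposited scale). Nfatc1, the master factor, stood at 368, 1742 and 1406, 3.82-fold above 0 h and below its 24 h level. Myc (85.7, 575 and 209) and Mitf (485, 1808 and 593) had their highest signals at 24 h, and Mitf ended within 2-fold of its start. Bhlhe40, a repressor of the basic helix-loop-helix class, rose from 152 through 913 to 1299 (8.57-fold), Prdm1, which encodes Blimp1, from 204 through 629 to 637, and the mitochondrial coactivator Ppargc1b from 154 through 427 to 655. Id3 and Id1, inhibitors of helix-loop-helix factors, rose after 24 h, from 88.0 through 61.4 to 586 and from 37.8 through 27.4 to 133. Stromal markers rose after 24 h as well, and their part in the Id values was not tested. Batf, an AP-1 partner, fell from 196 through 75.5 to 25.6 and the immediate early receptor Nr4a1 from 140.2 through 42.0 to 36.5, whereas Fos was within 2-fold (3198, 4055 and 1987). Jdp2, an AP-1 family factor, rose by its brightest probe set (299.7, 3734 and 3192). Jdp2 had at least 1 other probe set that stayed within 2-fold.

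In RANK, M-CSF and ITAM signalling 5 of 37 genes rose and 7 fell (9 higher and 2 lower on the deposited scale). These shares were 13.5% and 18.9%, against 12.5% and 12.8% of all measured genes. RANK itself (Tnfrsf11a) went from 142 through 255 to 342 (2.40-fold), its adaptor Traf6 from 37.2 through 64.4 to 134, and the feedback inhibitor Tnfaip3 from 35.9 through 64.8 to 231. Of the ITAM side, the co-receptor Oscar rose as given above and Trem2 went from 1749 through 1076 to 352, a fall that its other probe set did not share (the log2 difference turned to 0.63 without probe sets shared between transcripts), while their adaptors Fcer1g (3190.3, 1784 and 1694) and Tyrobp (5297, 4724 and 6436) stayed within 2-fold. The lipid kinase subunit Pik3cd fell from 723 through 194 to 100.4 (7.20-fold) and the exchange factor Vav1 from 289 through 116 to 91.5. Calcium and calcineurin genes rose in 5 and fell in 5 of 29, 17.2% each way (14 higher and 3 lower on the deposited scale). The calcineurin inhibitors Rcan1 (147, 602 and 629.6) and Rcan2 rose, and the store pump Atp2a3 fell from 209 through 83.6 to 34.6. The calcium release channel Itpr3 went from 81.5 through 503 to 313 and its relative Itpr2 from 153 through 43.7 to 34.1. The release channels thus moved in opposite directions. Traf6 and Itpr2 had at least 1 other probe set that stayed within 2-fold.

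Receptors for other signals changed in both directions. Of the TNF, MAP kinase and G protein lists below, 16.7%, 10.7% and 10.3% rose, against 12.5% of all measured genes. The shares that fell were 33.3%, 21.4% and 31.0%, against 12.8%. In the TNF and TNF receptor superfamilies 3 of 18 rose and 6 fell (5 higher and 3 lower on the deposited scale). Tnfrsf12a, the TWEAK receptor, went from 48.5 through 198 to 236 and Tnfrsf9, the receptor 4-1BB, from 10.4 through 108 to 216, against the TNF receptors Tnfrsf1a (1028, 469.6 and 454) and Tnfrsf1b (779, 324 and 141), which fell 2.26-fold and 5.54-fold. MAP kinase genes and phosphatases rose in 3 and fell in 6 of 28 (11 higher and 1 lower on the deposited scale), with Map2k3, which activates p38, higher (507, 1480.5 and 1119.8), Mapk14, p38 alpha itself, lower (802, 615 and 348), Spry2, a feedback inhibitor, higher (44.3, 83.7 and 185) and Dusp6, which inactivates ERK, lower (743, 196 and 303). G protein subunits and RGS proteins fell in 9 and rose in 3 of 29 (10 higher and 7 lower on the deposited scale). Gng11 (220.1, 452 and 1134) and Gnb4 (122, 461 and 621) rose while Gng2 (545, 85.2 and 75.9), Gnai2 (2528, 1453 and 845), the arrestin Arrb2 (1650.3, 596 and 269) and the regulator Rgs18 (179.7, 27.6 and 8.87) fell. Rgs10, described in osteoclast calcium signalling, was level (1462, 1295 and 1730.0). Tnfrsf1b, Mapk14 and Gng2 had at least 1 other probe set that stayed within 2-fold.

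Secreted growth and coupling factors rose in 14 of 28 and fell in 4 (median 1.08). Sphk1, which makes sphingosine 1-phosphate, went from 43.2 through 68.5 to 499.6 (11.6-fold), in the same direction as the exporter Spns2 (40.6, 129.8 and 732). The platelet-derived growth factor chain Pdgfb went from 247 through 1134 to 1167, the activin chain Inhba from 96.5 through 184 to 438, the cytokine Lif from 36.9 through 72.7 to 141 and the protease Bmp1 from 45.3 through 87.6 to 151. Vascular growth factors Vegfb (80.8, 82.1 and 302) and Vegfa (86.2, 146 and 211) rose, and Csf1, which encodes M-CSF itself, went from 162 through 64.1 to 417. Macrophage products fell: Igf1 from 1968 through 134 to 187 (10.5-fold), the binding protein Igfbp4 from 2745 through 1187 to 319.6 and Gas6, a ligand of the receptor Mertk, from 4060.0 through 177 to 482. Fn1, fibronectin (692, 1031 and 2717), and Ccn2 (818, 812 and 1892) rose together with the stromal genes, and which cells carried the factors that rose was not tested. Guidance molecules rose in 7 of 21 and fell in 4. The osteoclast signals to osteoblasts Sema4d (948, 1555 and 2244) and Efnb2 (17.5, 17.5 and 272) were higher, Efnb1 went from 76.7 through 194 to 254, and Sema4a fell from 622 through 291 to 42.8 (14.5-fold). Of the neuropilins, Nrp2 rose from 365 through 1589.6 to 937 and Nrp1 fell from 1370.2 through 115 to 210.3 (6.51-fold). Bmp1, Efnb2 and Efnb1 had at least 1 other probe set that stayed within 2-fold.

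Receptors by which macrophages see microbes, debris and antibody fell broadly. Fc, complement and phagocytic receptor genes fell in 10 of 19 and rose in 2 (median -1.65). The high affinity receptor Fcgr1 went from 747 through 63.2 to 64.6 (11.6-fold), Fcgr3 from 2677 through 249 to 264, the inhibitory Fcgr2b from 4013 through 1860.1 to 549.7 and the complement chain C1qa from 4199 through 609 to 720.4. Fcgr1, Fcgr3 and C1qa reached their low level by 24 h, Fcgr2b did not. The complement inhibitor Cd59a rose from 102 through 214 to 486. Scavenger and lectin receptors fell in 14 of 27 and rose in 3 (median -1.15), with Clec4e and Clec4d 6.69-fold and 4.49-fold lower, Clec4n at 4202, 975 and 1052 and Clec4a2, a lectin with an inhibitory motif, 2.99-fold higher (849, 1739 and 2533). Toll-like receptors and innate sensors fell in 14 of 26 with 0 higher (3 higher and 7 lower on the deposited scale) (median -1.20). Tlr7, which senses RNA, went from 388 through 67.5 to 46.4, Tlr2, which senses lipoproteins, from 944 through 403 to 237, the shared adaptor Myd88 from 698 through 428 to 219.6, and Sting1, the adaptor of DNA sensing, from 254 through 117 to 47.9. Tlr7 had at least 1 other probe set that stayed within 2-fold.

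Chemokines and their receptors fell in 15 of 29, and Ccr1, a receptor described on osteoclasts, was the 1 that rose (1355, 1163 and 2948, 2.18-fold); with trimmed mean scaling or quantile normalization it did not reach 2-fold and 0 members rose. Ccr2, the monocyte receptor, fell from 335 through 72.6 to 12.2 and Cxcr4, which holds cells in marrow, from 1626 through 945 to 361. The ligands Ccl6 (793, 51.9 and 96.1), Ccl3 (233, 6.77 and 3.56) and Cxcl2 (211, 14.3 and 15.7) were low from 24 h on. Interleukins and receptors fell in 11 and rose in 3 of 29 (median -0.84). Il1rn, the natural antagonist of interleukin 1, rose from 68.0 through 121 to 209 while Il1b fell from 215 through 50.5 to 32.0. The interferon gamma receptor chains split, Ifngr1 falling from 617 through 551 to 169 and Ifngr2 rising from 296 through 470.2 to 716. Il6ra (320.2, 71.4 and 34.5), Il10ra (273, 22.4 and 3.53) and Csf3r, the G-CSF receptor of neutrophils (647, 102 and 41.4), fell as well. Ccr1, Ifngr2, Il6ra and Il10ra had at least 1 other probe set that stayed within 2-fold.

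Interferon-induced genes fell in 20 of 35 and rose in 1 (median -1.18). The count was 13 on the deposited scale and 8 with the floor at the 60th percentile. Ifitm1, a membrane protein that blocks viral entry, went from 966 through 1501 to 107 (9.06-fold), after a 24 h level above the start. Bst2, tetherin, went from 245 through 198 to 49.9, the GTPase Igtp from 179 through 83.9 to 40.8, and Ifit1, which binds viral RNA, from 89.6 through 35.5 to 22.3. Tap2, a peptide transporter, was the member that rose (212, 317 and 474). Promoters of these genes can carry the interferon response element, searched as GAAA, any 2 bases and GAAA on both strands in the 250 bases before the start (adjacent matches may overlap). It was present in 8 of 17 list members that had passed 2-fold and had a promoter in the RefSeq table, in 13 of 29 of those measured, and in 821 of 27025 promoters in all, or 3.04%. List members that passed 2-fold thus held it about as often (47.1%) as all measured members (44.8%). Among all measured genes 2.79% held it. Of the genes that fell, 4.46% of 875 held it, and of those that rose, 2.35% of 850. The promoters of Bst2 (chr8:71537473-71537722, minus strand), Igtp (chr11:58199306-58199555, plus strand) and Ifit1 (chr19:34640639-34640888, plus strand, all GRCm38.p6) are shown as examples. Each is a list member that fell and holds the element, which is in capitals.
Bst2: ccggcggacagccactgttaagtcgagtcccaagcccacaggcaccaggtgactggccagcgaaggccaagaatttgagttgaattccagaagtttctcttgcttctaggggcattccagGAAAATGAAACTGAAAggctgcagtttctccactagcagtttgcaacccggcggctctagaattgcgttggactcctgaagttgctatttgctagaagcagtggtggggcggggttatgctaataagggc
Igtp: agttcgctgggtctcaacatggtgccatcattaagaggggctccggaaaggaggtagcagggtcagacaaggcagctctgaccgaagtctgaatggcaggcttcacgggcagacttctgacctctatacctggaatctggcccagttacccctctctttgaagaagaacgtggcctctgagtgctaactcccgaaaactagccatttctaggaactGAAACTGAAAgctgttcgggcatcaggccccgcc
Ifit1: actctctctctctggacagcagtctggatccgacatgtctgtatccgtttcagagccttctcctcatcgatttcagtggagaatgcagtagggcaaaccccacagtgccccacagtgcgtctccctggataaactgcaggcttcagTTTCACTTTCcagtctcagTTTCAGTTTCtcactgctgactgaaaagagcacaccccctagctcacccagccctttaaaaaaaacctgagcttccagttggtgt
The first matching base lay 130 bases before the start in Bst2, 34 in Igtp and 104 in Ifit1. A match is a description of the letters, and the arrays did not measure binding there.

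MHC class II presentation fell in 7 of 10 with 0 higher (0 higher and 3 lower on the deposited scale) (median -1.57), as for the chain gene H2-Aa (468, 169 and 45.3, 10.3-fold), the peptide editor H2-DMa (349, 183 and 57.6) and the invariant chain Cd74 (514, 259.5 and 175). In MHC class I presentation 5 of 15 fell and 1 rose (1 higher and 1 lower on the deposited scale). The peptide-loading Tapbp (1312, 1338 and 530.2) and the nonclassical H2-M3 (451, 202 and 127) fell, while B2m, the shared light chain, was level (4763, 7339 and 4376). Tapbp had at least 1 other probe set that stayed within 2-fold.

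Many genes of mitochondria rose and few fell. Of 74 respiratory chain and ATP synthase genes 39 rose and 0 fell (median 1.07). Cytochrome c (Cycs) went from 867 through 3730.0 to 4684 (5.40-fold), Ndufab1, the acyl carrier protein bound to complex I, from 446 through 1789.8 to 2307 (5.18-fold), and Uqcrc2, a core subunit of complex III, from 852 through 2249 to 3036. In the tricarboxylic acid cycle and pyruvate entry 20 of 29 rose and 1 fell (median 1.30). The dehydrogenase subunits Idh3a (316, 2391 and 2328), Pdhb (679, 1535 and 3368) and Dlat (222, 559 and 957) rose, and the exception was Idh1, the cytosolic isocitrate dehydrogenase that makes NADPH (2423, 735 and 1179). Mitochondrial ribosomal proteins rose in 25 of 72 with 0 lower (median 0.84). The count was 14 with trimmed mean scaling, 17 after quantile normalization and 61 on the deposited scale. Among those that rose were Mrps22 (132, 515 and 455), Mrpl20 (274, 1025 and 846) and Mrps34 (393, 1186 and 1193), which had all reached this level by 24 h. The NRF1 site (GCGCA, any base, GCGC, on both strands), known from promoters of mitochondrial genes, was in 9 of 62 respiratory chain promoters and in 3 of the 33 of those that rose, against 8.91% of all measured genes, so the genes that rose were near that background. Import proteins and carriers rose in 15 of 40 and fell in 2 (median 0.76). The import channel Timm17a went from 441 through 1472 to 1608, the ADP/ATP carriers Slc25a4 and Slc25a5 from 1375 through 2848 to 4366 and from 2591 through 5729.6 to 6895, and the iron importer Slc25a37 fell from 304 through 162 to 73.1 (4.15-fold). Pdhb and Idh1 had at least 1 other probe set that stayed within 2-fold.

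Transcripts of fuel pathways beyond the mitochondrial cycle also changed, and fuel use itself was not measured. Fatty acid and ketone genes rose in 11 of 37 and fell in 4 (median 0.41). Of ketone body use, Bdh1 went from 75.2 through 348 to 2049 and Oxct1 from 1314 through 1062 to 3637 (2.77-fold). Of beta-oxidation, Acaa2 (355, 512 and 1382), Acadl (286, 288 and 729) and the electron carrier Etfdh (201, 326 and 1075) rose, whereas the desaturases Fads1 (870.1, 460.4 and 174) and Fads2 (129, 128 and 36.0) and the fatty acid binding proteins Fabp3 (158, 35.6 and 20.5) and Fabp4 (117, 18.6 and 37.6) fell. Glycolysis and pentose phosphate genes rose in 5 of 25 and fell in 1 (median 0.12): Ldhb went from 156 through 146 to 677, Aldoc from 158 through 201 to 558, and Pfkfb3, which drives glycolysis through a signalling sugar, fell from 109 through 53.1 to 19.5. In the list of creatine, cytochrome P450 and aldo-keto reductase genes 10 of 23 rose and 5 fell (median 0.44). Of its creatine genes, creatine kinase B (Ckb) went from 680.0 through 1224 to 8640.4 (12.7-fold), the mitochondrial kinase Ckmt1 from 9.66 through 16.7 to 448 and the creatine importer Slc6a8 from 290.1 through 1031 to 1843, while Gatm, which starts creatine synthesis, fell from 355 through 703 to 90.7 and the muscle kinase Ckm was level (118, 132 and 124). Cholesterol genes rose in 2 and fell in 4 of 27 (6 higher and 1 lower on the deposited scale), among the latter the effluxer Abca1 (2210.4, 755 and 492) and its acceptor Apoe (10417, 6540.3 and 4444). Oxct1, Fads2, Fabp4 and Pfkfb3 had at least 1 other probe set that stayed within 2-fold.

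Carriers of amino acids, glucose and other solutes changed in both directions, 8 of 43 rising and 9 falling (19 higher and 7 lower on the deposited scale). The glutamine carrier Slc1a5 went from 105 through 809 to 1057 (10.1-fold), the sugar phosphate carrier Slc37a2 from 663 through 1722 to 5089 and the copper importer Slc31a1 from 312 through 222 to 787. The glucose carrier Slc2a3 fell from 415 through 77.9 to 30.2 (13.7-fold) and the peptide carrier Slc15a3 from 476 through 60.6 to 37.9. Iron genes rose in 7 and fell in 9 of 31 (11 higher and 7 lower on the deposited scale). Those that rose included the transferrin receptor Tfrc from 1664 through 2206 to 5339.7 (3.21-fold), the importer Slc11a2 from 185 through 228 to 459 and the reductase Steap4. Those that fell included the mitochondrial importer Slc25a37, given above, the exporter ferroportin (Slc40a1) from 1115 through 82.2 to 127, the heme oxygenase Hmox1 from 1724 through 168 to 288, the biliverdin reductase Blvrb from 2149 through 424 to 502, and the phagosomal Slc11a1 from 2243 through 505 to 315. In the glutathione and antioxidant list 5 of 40 rose and 9 fell (12 higher and 5 lower on the deposited scale). These shares were 12.5% and 22.5%, against 12.5% and 12.8% of all measured genes. The microsomal transferases split, Mgst3 rising from 167 through 468 to 1128 and Mgst1 falling from 2389 through 333 to 268. Mitochondrial Sod2 (1135, 1415 and 2721) and Prdx3 (444, 1129 and 976) rose, whereas Nfe2l2, which encodes NRF2 (1146, 513 and 478), and its target Gclm (1912, 296 and 358) fell. Slc31a1 and Slc11a2 had at least 1 other probe set that stayed within 2-fold.

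Protein synthesis and turnover changed less. Cytosolic ribosomal proteins rose in 0 of 43 and fell in 2 (4 higher and 0 lower on the deposited scale), with Rps27 at 109, 198 and 44.5. Ribosome biogenesis genes rose in 7 of 53 (13.2%, median 0.50), near the 12.5% of all measured genes. Of these, Nop56 (175, 1079 and 377) and Bop1 (120.0, 564 and 284) ended below their 24 h levels. Charging of tRNA, serine and one-carbon genes rose in 11 of 35 with 0 lower (median 0.62); the count was 26 on the deposited scale and 6 with trimmed mean scaling. The list was led by Asns, asparagine synthetase (174, 424 and 791, 4.56-fold), and Phgdh, the first enzyme of serine synthesis (97.9, 104 and 267). The proteasome rose in 4 of 37 (median 0.30), a share below that of all genes. Endoplasmic reticulum genes rose in 4 and fell in 2 of 48 (8.33% and 4.17%, both below the shares of all measured genes). Those that rose included the stress-linked Chac1 (32.7, 41.5 and 139) and Trib3 (28.1, 22.1 and 66.9). Of 32 cytosolic chaperones 4 rose, 12.5% as over all measured genes, and among them was the small heat shock protein Hspb1 (127, 225 and 989, 7.80-fold). Autophagy and mTOR genes rose in 5 and fell in 4 of 35 (14.3% and 11.4%, against 12.5% and 12.8% of all measured genes). On the deposited scale 15 of them were higher and 1 lower. Eif4ebp1, which restrains translation under mTOR, went from 553 through 766 to 1634, the mTOR activator Rheb from 494 through 906 to 1293, and the inhibitor Sesn1 fell from 2156 through 312 to 233 (9.24-fold). Phgdh, Trib3 and Eif4ebp1 had at least 1 other probe set that stayed within 2-fold.

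Genes of mitosis were lower at the end of the course. Of 57 mitosis and cytokinesis genes 22 fell and 0 rose (median -0.82). On the deposited scale 2 of these genes fell and the median was -0.06, so this count rests on the scaling of the arrays. The proliferation marker Mki67 went from 1238 through 1659.7 to 238 (5.21-fold), Incenp of the chromosomal passenger complex from 1452 through 1077 to 279.6, the topoisomerase Top2a from 730.5 through 1699 to 329.9 and the cyclin Ccnb2 from 435 through 766 to 206, so all but Incenp were highest at 24 h. Genes of DNA replication and nucleotide supply were mostly within 2-fold, 2 of 45 being higher and 3 lower at 72 h (9 higher and 0 lower on the deposited scale). Mcm3, a subunit of the replicative helicase, went from 379 through 846 to 170.1, whereas the chromatin assembly factor Chaf1b went from 65.7 through 161 to 324. The neutrophil and precursor list fell between the same arrays, and its part in the mitosis values was not tested. Among G1 cyclins, kinases and inhibitors 3 rose and 8 fell of 30 (11 higher and 3 lower on the deposited scale). The inhibitor Cdkn2b (18.7, 49.0 and 118) and the cyclin Ccnd2 (139, 97.9 and 480.1) rose, and the antiproliferative Btg2 fell from 423 through 98.3 to 56.8 (7.46-fold). In the apoptosis list 4 of 25 rose and 3 fell (16% and 12%, against 12.5% and 12.8% of all measured genes). On the deposited scale 10 of its members were higher and 0 lower. The BH3 protein Pmaip1 (52.2, 23.4 and 208) was among those that rose. Bcl2l11, which encodes BIM, was among those that fell (1801, 1687 and 827), although another of its probe sets rose 2-fold. Incenp, Mcm3 and Ccnd2 had at least 1 other probe set that stayed within 2-fold.

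Mitotic promoters are known for CCAAT boxes, and those of Top2a (chr11:99024190-99024439, minus strand), Ccnb2 (chr9:70421555-70421804, minus strand) and Mki67 (chr7:135716380-135716629, minus strand; all GRCm38.p6) are shown for that reason, with CCAAT on either strand in capitals.
Top2a: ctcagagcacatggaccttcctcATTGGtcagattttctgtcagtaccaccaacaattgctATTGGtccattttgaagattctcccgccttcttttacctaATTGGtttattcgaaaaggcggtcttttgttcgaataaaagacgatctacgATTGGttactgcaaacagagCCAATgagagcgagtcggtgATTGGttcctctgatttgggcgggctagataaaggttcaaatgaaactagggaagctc
Ccnb2: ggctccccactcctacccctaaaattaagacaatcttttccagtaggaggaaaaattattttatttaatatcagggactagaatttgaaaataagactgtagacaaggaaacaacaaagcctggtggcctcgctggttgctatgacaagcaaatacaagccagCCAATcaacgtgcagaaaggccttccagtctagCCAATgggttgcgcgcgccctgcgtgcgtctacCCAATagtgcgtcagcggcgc
Mki67: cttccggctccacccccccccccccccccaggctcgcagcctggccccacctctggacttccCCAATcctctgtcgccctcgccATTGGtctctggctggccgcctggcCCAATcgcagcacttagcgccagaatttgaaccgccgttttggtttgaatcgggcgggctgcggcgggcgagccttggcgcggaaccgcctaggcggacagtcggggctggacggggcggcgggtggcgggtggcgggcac
Top2a held 6 matches in these 250 bases, Ccnb2 3 and Mki67 3. Of the mitosis genes, 46 of those measured and 17 of those that fell had a promoter in the table, and CCAAT was found in 33 and 11 of these, against 9314 of 27025 promoters in all, or 34.5%. The CHR element, searched as TTTGAA, was found in 18 and 9 of the same promoters, against 16.3% of all promoters and 10.4% of those of measured genes. For genes as a whole, CCAAT was about as frequent among those that fell (36.2%) as among all measured genes (36.1%).

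**Figure D5:**
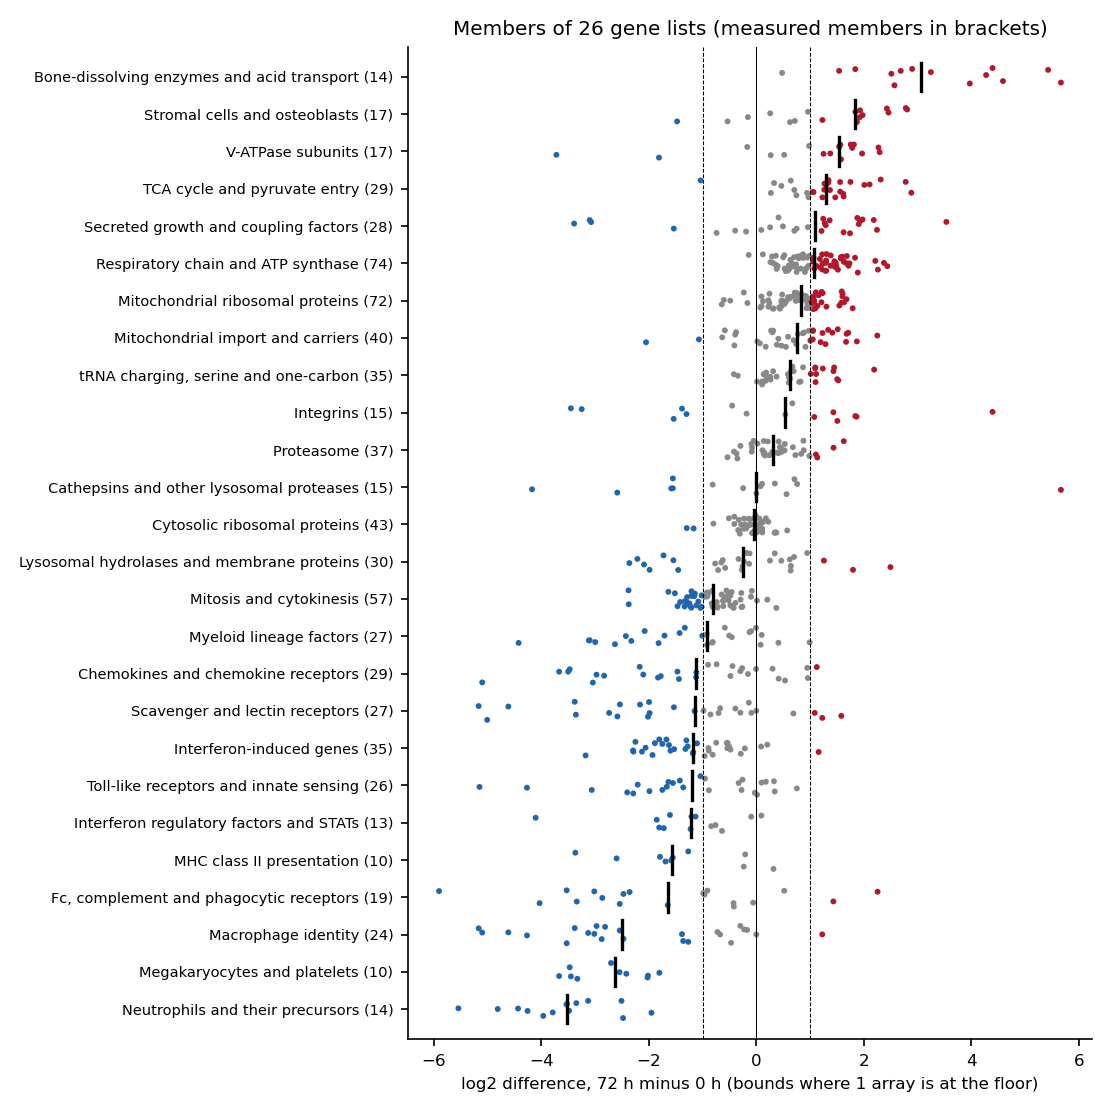
Log2 difference between 72 h and 0 h of RANKL (1 array each) for the measured members of 26 gene lists, ordered by median (black bar); red points rose and blue points fell at least 2-fold, dashed lines mark 2-fold. The medians run from -3.53 for neutrophil genes to 3.07 for bone-dissolving genes.

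Some of the calls given here ended under another setting. Among the genes described, the falls of Adam17, Apoe, Bcl2l11, Ccnb2, Cd200r1, Cd74, Cd81, Ctsc, Ctss, Dcn, Dusp6, Fabp4, Gnai2, Idh1, Irf1, Itgal, Itgam, Itgb5, Lgmn, Mapk14, Mcm3, Myd88, Myo7a, Nfe2l2, Rab32, Rps27, Tal1, Tapbp, Tnfrsf1a, Top2a and Vav1 were under 2-fold on the deposited scale. With trimmed mean scaling Ccr1, Cd9, Itgb1, Nop56 and Vdr, and after quantile normalization Ccn2, Ccr1, Cd9, Itgb1, Sema4d, Sod2 and Vti1b, did not reach 2-fold. With the floor at the 60th percentile the same held for Atp6v0e2, Bmp1, Cdkn2b, Chac1, Dcn, Fabp3, Fabp4, Fads2, Id1, Igtp, Itpr2, Lif, Mmp2, Nr4a1, Pfkfb3, Rgs18, Rps27, Tal1, Traf6 and Tspan13, and with averaged probe sets for Acadl, Adam15, Bcl2l11, Bmp1, Ccr1, Cd82, Efnb1, Eif4ebp1, Idh1, Ifngr2, Itpr2, Mapk14, Mcm3, Mgst1, Myb, Phgdh, Slc25a4, Slc2a3, Slc31a1, Spry2, Tapbp, Top2a, Trem2, Trib3 and Vdr.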

How the data were processed

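Transcript signals of 3 arrays, 1 each at 0, 24 and 72 h of RANKL, were deposited as microarray intensity values on a linear scale. The submitters' processing notes name MAS5 as their source; its version is not given in the sources used here. RNA (5 ug per the labels' protocols) was labelled as cRNA. Of 22690 probe sets, 64 were controls, and 20380 carried a single symbol in the platform annotation of 2016. Each array's log2 signals were centred on the median of gene probe sets, and values under the 40th percentile (29.6) were set to it. The brightest single-symbol probe set by mean log2 signal stood for a gene, and 2-fold was the threshold. Named genes were the 15 largest differences above the floor and the 8 largest bounds each way, the up to 4 members of each list with the largest differences each way, defining list members, and relatives for contrast. Of 315 genes named, 79 lie outside the first parts of that rule (relatives such as Mt1 and the granzymes, and members such as Slc4a2, Cxcr4 or Top2a), and were chosen for their role or contrast after their values were seen. The genes and lists were chosen with earlier results of these data known. Promoters (GRCm38.p6) came from RefSeq, with 9887 array genes matched. Python 3.11.15, numpy 2.4.6 and pandas 2.3.3 were used, and the calculation was tested on simulated data. Alternatives covered scaling, floor and probe set choice.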

Additional observations from a re-analysis of the deposited data

Results flagged for a closer look

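Probe sets that name no single gene were left out of the comparison, and some of them differed as well. Of 691 probe sets with several symbols 486 were measured, of which 49 were at least 2-fold higher at 72 h than at 0 h and 38 lower. Of 1555 probe sets with no symbol 684 were measured, of which 69 were higher and 88 lower. They were singled out because the signal lies outside the genes reported on, and which genes they detect was not examined.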

How the results depend on the processing

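Against 1068 genes higher and 1095 lower, the deposited scale gave 2985 and 455 (mitosis list 2 lower in place of 22), and no floor gave 1983 and 2283. Lower genes numbered 1659 with the floor at the 20th percentile and 712 with it at the 60th. Other alternatives stayed within 1.5 times for both counts. The floor sets how many dim genes are tested, and the deposited scale adds the log2 shift of 0.77. Of 284 named genes past 2-fold, 210 kept their call under every one of the 11 alternatives that gave them a value. The deposited scale ended 31 of these calls, all of lower genes, averaging probe sets 25, the floor at the 60th percentile 20, quantile normalization 7, trimmed mean scaling 5, leaving out probe sets shared between transcripts 5, a pseudocount of 16 without a floor 3, and hybridization control scaling and probe set choice by 2 arrays 1 each. Averaging probe sets turned the log2 difference of Cd82 to -0.11 and that of Trem2 to 0.079, and without probe sets shared between transcripts Trem2 was at 0.63. No paired analysis was possible because each time has 1 array. Signal near the floor limits dim genes.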

Other observations

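Other motifs were searched in the same promoter windows on both strands. The AP-1 site TGANTCA was in 0 of 11 measured bone-dissolving genes with a promoter, against 4.61% of measured genes and 6.87% of all promoters. At this number of genes that is a description only. The E-box CACGTG was in 2 of 12 V-ATPase promoters, against 8.38% of measured genes, and its longer form TCACGTGA in 1 of 12, against 1.63%. The estrogen-related receptor site TCAAGGTCA was in 1 of 62 respiratory chain promoters, against 0.27% of measured genes. The PU.1 site, searched as GAGG followed by AAGT, was in 3 of 16 Fc, complement and phagocytic receptor promoters, and in 1 of the 10 of these that had passed 2-fold, against 2.36% of measured genes. It was in 3.31% of the promoters of genes that fell against 1.41% of those that rose.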
